A study of Mus musculus with 10 samples.

Results

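*Phgdh*, *Psat1*, *Psph*, *Shmt1*, *Shmt2*, *Mthfd1*, *Mthfd2*, *Mthfd1l*, *Mthfd2l* and *Mtr* encode the enzymes that make serine from a glycolytic intermediate and pass its carbon through the folate cycle to methionine. These 10 genes were taken by name from the 51717 genes to which the deposited transcripts were summed. RNA was measured in granulocyte-macrophage progenitors (GMPs), the bone marrow cells that give rise to neutrophils and monocytes, sorted as CD45.2+ cells from mixed bone marrow chimeras. The WT donors carried ROSA26 CreER+/-, and the recent KO donors carried Mpc2fl/fl; ROSA26 CreER+/-, so that the Cre transgene was shared and the floxed allele of a mitochondrial pyruvate carrier subunit was not. All mice were labeled as male C57Bl6/N, were fed tamoxifen chow for 2 wk and were taken when it ended. CreER is expressed from a ubiquitous locus, so deletion was not limited to GMPs, and the irradiated CD45.1 hosts also held CD45.1 marrow, which the sort left out. Hosts of both groups had been given sulfamethoxazole and trimethoprim, antibiotics that block bacterial folate synthesis and reduction, in their water after the transplant and were rested for reconstitution before tamoxifen. Each group gave 5 samples, with 1 mouse behind a WT sample and a pool of 2 mice behind a recent KO sample, and the labels used here give no age.

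Serine is made in the cytosol from 3-phosphoglycerate by the successive action of PHGDH, PSAT1 and PSPH. Serine hydroxymethyltransferase then moves a carbon from serine to tetrahydrofolate and leaves glycine, SHMT1 in the cytosol and SHMT2 in mitochondria. The folate-bound carbon is oxidized to formate in mitochondria by MTHFD2 or MTHFD2L and then MTHFD1L, and in the cytosol MTHFD1 carries out the same steps in 1 protein, feeding purine, thymidylate and methionine synthesis. Dividing cells are known to draw heavily on the mitochondrial arm.

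The samples held 14033776 to 19745405 estimated reads (14133706 to 19745405 in WT and 14033776 to 19658346 in recent KO). *Mpc2*, the targeted gene, had a normalized CPM (reads scaled to the TMM-adjusted library size) of 61.0, 111, 95.2, 117 and 60.9 in WT samples and 27.7, 17.1, 43.9, 37.0 and 35.0 in recent KO samples, with no overlap. This CPM sums the whole gene, of which the paper reports a single floxed exon, so reads of other exons can remain after deletion. The GMP marker *Mpo* averaged 61000 CPM in WT samples against 42400 CPM in recent KO samples. Of the GMP markers, 8 of 8 were detected well enough to be tested, and 0 were called after adjustment. Lower in recent KO samples at an unadjusted p below 0.05 (edgeR) were 5 of the 8, beside 5.35% of all tested genes. For 1 of these, *Fcgr3*, the groups did not overlap (log2 fold change -0.65, edgeR adjusted p = 0.107). *Cd34*, *Kit* and *Cebpa* were not among the 5 (log2 fold changes 0.25, 0.08 and -0.04). Of 6 macrophage markers, *C1qa*, *C1qb* and *C1qc* were called higher in recent KO samples, while *Vcam1*, *Adgre1* and *Mrc1* were not called (log2 fold changes 0.18, -0.39 and 1.23), and the summed CPM of the 6 ranged from 15.3 to 29.4 in WT and from 31.3 to 54.8 in recent KO. The sums for 6 late neutrophil markers were 110 to 416 and 102 to 724 CPM, those for 6 erythroid markers 6.36 to 24.9 and 13.6 to 126 CPM, and those for 5 megakaryocyte markers 8.70 to 17.1 and 21.4 to 29.7 CPM. The 5 basophil and mast cell markers summed to 152 to 283 CPM in WT and 200 to 350 CPM in recent KO samples, the 5 T cell markers to 2.33 to 5.99 and 5.05 to 7.72 CPM, and the 3 plasma cell markers to 1.13 to 2.83 and 1.83 to 4.79 CPM. None of these markers were called. At an unadjusted p below 0.05 (edgeR), 4 of 6 late neutrophil and 3 of 5 tested erythroid markers were higher in recent KO samples. So were 3 of 3 tested megakaryocyte markers, 1 of 1 tested T cell marker and 2 of 5 basophil and mast cell markers. Of the latter 1 was lower, and the 1 plasma cell marker tested was in neither count. Over all tested genes 4.89% were higher and 5.35% lower. The 5 B cell markers summed to at most 1.08 CPM in any sample. The part of these other cells in the levels given here was not tested, and in bulk RNA fewer cells of a type and less RNA per cell cannot be told apart.

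All 10 genes were expressed, and their order is given in TPM, which is scaled to transcript length so that levels of different genes can be set side by side. *Phgdh* was the most abundant, with a TPM of 293 ± 30.1 (SD, n = 5) in WT samples, rank 542 of 25246 genes with any TPM in WT. *Shmt2* followed at 87.4 ± 7.28, then *Psat1* at 56.6 ± 6.88, *Shmt1* at 43.9 ± 6.48 and *Psph* at 34.7 ± 6.26. *Mthfd1* and *Mthfd2* lay together at 20.2 ± 1.68 and 19.2 ± 1.73, and *Mthfd1l*, *Mthfd2l* and *Mtr* were the lowest, at 7.52 ± 0.673, 7.37 ± 3.41 and 4.10 ± 0.878. The median gene with any TPM in WT had a TPM of 0.365.

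The level of *Phgdh* was 3.35 ± 0.162 times that of *Shmt2* within a WT sample, and each gene from *Phgdh* to *Psph* lay above the next in 5 of 5 WT samples. Neighbors whose WT ranges overlapped were *Psat1* and *Shmt1*, *Shmt1* and *Psph*, *Mthfd1* and *Mthfd2*, *Mthfd1l* and *Mthfd2l*, and *Mthfd2l* and *Mtr*. *Mthfd1* was above *Mthfd2* in 4 of 5 WT samples and *Mthfd1l* above *Mthfd2l* in only 2 of 5, so that these pairs had no firm order. With 5 samples, an exact two-sided sign-flip test allows no p below 0.0625, and the order within samples is therefore given as a description.

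**Figure D1:**
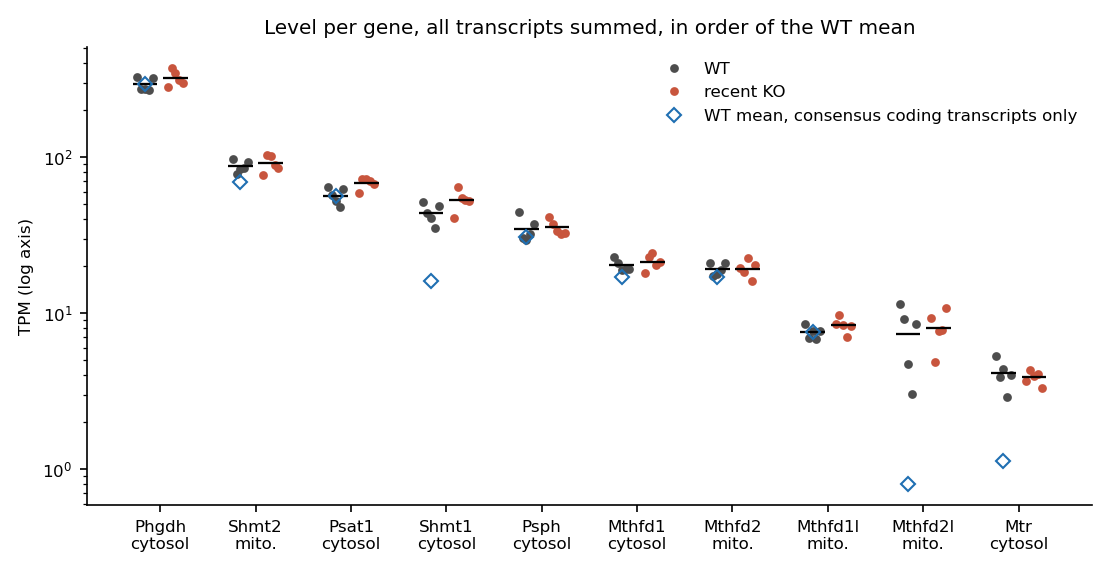
Level of each gene in TPM on a log axis, with its transcripts summed, in order of the WT mean. Points are the 5 samples of each group and black lines are group means; open diamonds give the WT mean of transcripts with a consensus coding sequence only. *Phgdh* lies at 268 to 328 TPM in WT, and the diamonds of *Shmt1*, *Mthfd2l* and *Mtr* lie far below the points of the same gene.

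The summed level depends on which transcripts are counted. A transcript with a consensus coding sequence (an identifier shared by the main annotation groups) held 99.9% of the *Phgdh* TPM, 99.6% of the *Psat1* TPM and 100% of the *Mthfd1l* TPM in WT samples, but 36.8% ± 2.87 of the *Shmt1* TPM, 28.5% ± 7.50 of the *Mtr* TPM and 13.2% ± 6.36 of the *Mthfd2l* TPM (SD, n = 5). Counting only such transcripts, *Shmt1* moved from rank 4 of the 10 to rank 7, with a TPM of 16.0 ± 1.68, and *Mthfd2l* from rank 9 to rank 10, with 0.799 ± 0.189. The ranks of *Phgdh*, *Shmt2* and *Psat1* were the same on both scales.

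Between the groups, 0 of the 10 genes were called by edgeR's quasi-likelihood test (adjusted p below 0.05), beside 0.331% of the 12381 tested genes. At an unadjusted p below 0.05 there were 2 of 10, *Psat1* and *Shmt1*, both higher in recent KO samples, beside 10.2% of all tested genes, 4.89% higher and 5.35% lower (1 of 10 without WT replicate 4 or without recent KO replicate 2), and DESeq2 called none of the 10 after adjustment. The groups did not overlap for 0 of the 10, beside 2.43% of all genes, 1.11% higher and 1.32% lower in recent KO samples. The fold change was above 0 for 8 of 10, beside 49.6% of all genes. The median log2 fold change was 0.06 over the 10 genes and -0.0018 over all tested genes, and the median absolute value was 0.06 and 0.10.

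**Figure D2:**
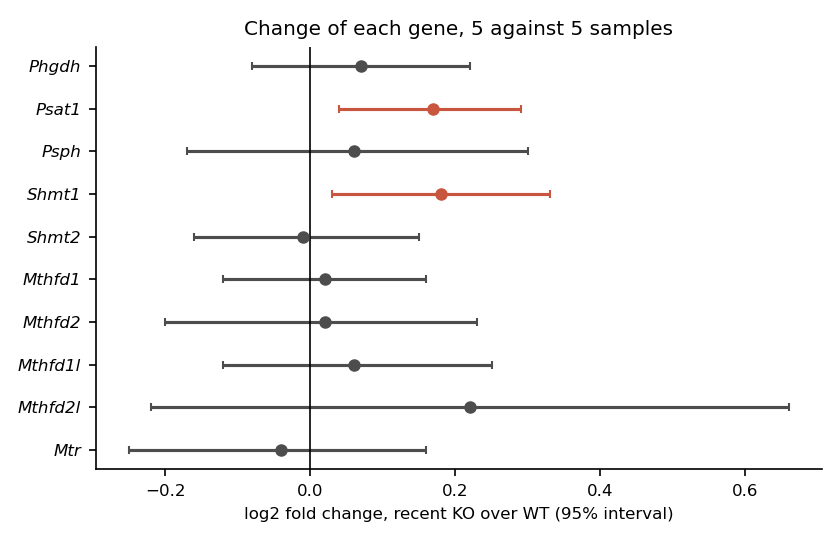
Log2 fold change of each gene, positive where recent KO samples were higher, with its 95% interval from the fit over 12381 genes. *Psat1* and *Shmt1*, in red, have intervals above 0 before adjustment, at 0.04 to 0.29 and 0.03 to 0.33, and the interval of *Mthfd2l* is the widest at -0.22 to 0.66.

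*Phgdh* (ENSMUSG00000053398, chr3:98313170-98339990, minus strand, GRCm38) encodes the dehydrogenase that opens serine synthesis. Its normalized CPM was 638, 573, 608, 602 and 649 in WT samples and 618, 721, 678, 617 and 590 in recent KO samples. The groups overlapped, with 2 recent KO samples above every WT sample. The log2 fold change was 0.07 ± 0.07 (SE; 95% interval -0.08 to 0.22; edgeR adjusted p = 0.805), so that a change beyond 1.16-fold upward or to 0.949-fold downward lay outside the interval. Among the annotated transcripts of GENCODE M21, a search for at least 90% identity over 100 bases found 17 processed pseudogenes close to the *Phgdh* transcript. Their identity was 90.4% to 98.7%, and none were assigned over 3 reads in any sample.

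*Psat1* (ENSMUSG00000024640, chr19:15904678-15947337, minus strand), the aminotransferase of the second step, had a normalized CPM of 170, 161, 159, 145 and 166 in WT samples and 165, 185, 189, 183 and 177 in recent KO samples. Of the recent KO samples, 4 of 5 lay above every WT sample, and replicate 1 lay within the WT range. Its log2 fold change was 0.17 ± 0.06 (SE; interval 0.04 to 0.29), with an unadjusted p of 0.0131 and an adjusted p of 0.330 by edgeR. *Psat1* was among the least variable genes between replicates, with a biological coefficient of variation of 0.0788 against a median of 0.136 over all tested genes. WT replicate 4, the lowest for *Psat1*, also had the lowest *Shmt1* and *Mthfd2l*, the fewest reads (14133706) and the highest *Mpo* (69000 CPM) of the WT samples, and the part of these in its *Psat1* value was not tested.

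The *Psat1* TPM was divided in near equal amounts between 2 transcripts with alternative first exons, each with its own start codon. Transcript Psat1-201 held 48.9% ± 4.82 of the gene's TPM in WT and 42.9% ± 3.14 in recent KO samples, and Psat1-205 held 50.7% ± 4.83 and 53.8% ± 4.90 (SD, n = 5). The shares of both transcripts overlapped between groups, and the difference of -6.0 percentage points for Psat1-201 had an exact permutation p of 0.0556 (adjusted p = 0.222 over the 20 transcripts compared). The coding parts of the first exons are shown because the coding sequences differ there, with the start codon in capitals. The transcripts also end at different annotated positions, 15904678 for Psat1-201 and 15905127 for Psat1-205. The shares therefore need not rest on the first exons alone, and use of each start was not measured apart. Psat1-201 begins in chr19:15924864-15924923 and Psat1-205 in chr19:15924304-15924354, both on the minus strand.
Psat1-201: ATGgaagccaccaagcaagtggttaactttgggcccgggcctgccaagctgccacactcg
Psat1-205: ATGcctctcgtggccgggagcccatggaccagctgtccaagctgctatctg
The rest of the coding sequence is shared, and the coding sequences come to 370 and 367 codons.

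The starts of these transcripts lie 437 bases apart. The 250 bases before each start (RefSeq, GRCm38.p6) are shown because reads were assigned to both transcripts. The letters CCAAT and GGGCGG, searched on both strands, are in capitals. The windows cover chr19:15925060-15925309 and chr19:15924623-15924872, and the lower window begins within the first exon of Psat1-201.
Psat1-201: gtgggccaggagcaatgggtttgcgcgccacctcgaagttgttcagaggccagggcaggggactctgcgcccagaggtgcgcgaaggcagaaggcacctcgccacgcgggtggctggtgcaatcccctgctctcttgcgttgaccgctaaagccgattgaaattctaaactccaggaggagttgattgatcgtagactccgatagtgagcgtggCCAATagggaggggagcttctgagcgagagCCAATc
Psat1-205: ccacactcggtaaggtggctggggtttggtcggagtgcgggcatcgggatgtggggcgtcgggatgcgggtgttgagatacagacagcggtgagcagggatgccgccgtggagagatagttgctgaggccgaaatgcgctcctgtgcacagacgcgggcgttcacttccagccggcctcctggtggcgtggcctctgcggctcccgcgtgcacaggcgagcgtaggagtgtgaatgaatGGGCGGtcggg
The upper sequence held 2 matches to CCAAT and none to GGGCGG, and the lower held 1 match to GGGCGG and none to CCAAT. RefSeq windows from 250 bases before to 50 after the start were on hand for 10 of 10 genes, 11 windows in all. CCAAT was found in the windows of 7 of the 10 genes (37.4% of all 32851 windows), GGGCGG in those of 7 (35.7%) and TATAAA in that of *Phgdh* alone (13.6%). CACGTG, the letters that MYC and related factors bind, and TGATGNAA, read by ATF4 with its partners, were in 0 of the 11 windows, beside 7.15% and 3.97% of all windows, which says only that these letters are not in these windows.

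*Psph* (ENSMUSG00000029446, chr5:129765558-129787449, minus strand), the phosphatase that releases serine, had a normalized CPM of 69.4, 52.7, 57.7, 61.7 and 59.2 in WT and 81.8, 62.7, 58.5, 57.4 and 54.3 in recent KO samples. Recent KO replicate 1 was the highest and the other 4 lay within the WT range. The fitted log2 fold change was 0.06 ± 0.11 (SE; interval -0.17 to 0.30; edgeR adjusted p = 0.892), and without recent KO replicate 1 it was -0.05. *Psph* overlaps 452 bases of *Cct6a*, a gene on the opposite strand with a mean of 574 CPM, and strand use in the library is not given in the sources used here, so reads of the overlap cannot be assigned with certainty.

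**Figure D3:**
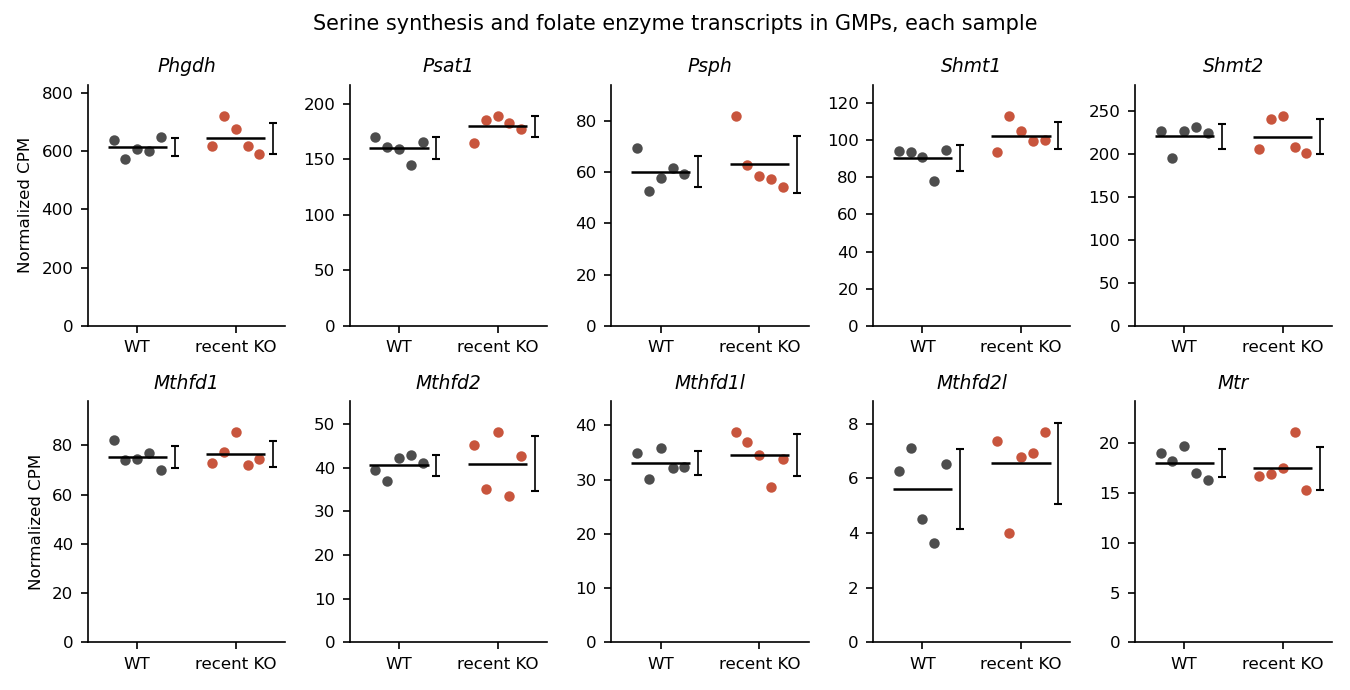
Normalized CPM of the 10 genes in each sample, on axes that start at 0, with 5 WT and 5 recent KO samples as points, the group mean as a line and the SD as a bar. The groups overlap in every panel, and 4 of 5 recent KO samples lie above the WT points for *Psat1* and for *Shmt1*.

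*Shmt1* (ENSMUSG00000020534, chr11:60788104-60811718, minus strand), the cytosolic serine hydroxymethyltransferase, had a normalized CPM of 94.0, 93.7, 91.1, 78.2 and 94.7 in WT and 93.7, 113, 105, 99.8 and 100 in recent KO samples. Again 4 of 5 recent KO samples were above every WT sample, and WT replicate 4 stood below its group. In edgeR's fit the log2 fold change was 0.18 ± 0.07 (SE; interval 0.03 to 0.33), with an unadjusted p of 0.0219 and an adjusted p of 0.396 by edgeR.

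The coding transcript Shmt1-201 took 60.1% of the estimated reads of the gene and 36.8% of its TPM in WT samples. Most of the remaining TPM was on shorter models: Shmt1-208, a processed transcript without a coding sequence, at 27.9% ± 7.24, Shmt1-206, with a retained intron, at 17.3% ± 2.27, and Shmt1-210 at 13.8% ± 4.17 (SD, n = 5). In recent KO samples Shmt1-201 held 36.1% ± 4.63, a difference of -0.7 percentage points (exact permutation p = 0.802). Shmt1-210 spread widely in recent KO samples, with shares of 7.63%, 21.3%, 28.4%, 18.2% and 4.53%.

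*Shmt2* (ENSMUSG00000025403, chr10:127517123-127522444, minus strand), the mitochondrial enzyme, had a normalized CPM of 227, 195, 226, 231 and 224 in WT and 206, 240, 244, 208 and 201 in recent KO samples. WT replicate 2 was apart from its group, and the recent KO samples reached both above and into the WT range. The log2 fold change was -0.01 ± 0.07 (SE; interval -0.16 to 0.15; edgeR adjusted p = 0.988), which allows 0.895-fold to 1.11-fold.

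Shmt2-201 held 79.5% ± 2.60 of the TPM in WT and 82.5% ± 3.54 in recent KO samples, and Shmt2-206 held 15.8% ± 2.32 and 13.3% ± 2.92 (SD, n = 5; exact permutation p = 0.198 for Shmt2-206). The coding sequences of these transcripts differ by 9 bases at the start of the second exon, and 501 codons remain of 504. The first 60 bases of that exon in Shmt2-201 (chr10:127521056-127521115, minus strand) are shown with the bases that Shmt2-206 lacks in capitals.
Shmt2-201: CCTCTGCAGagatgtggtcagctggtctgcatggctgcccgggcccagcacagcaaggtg
This stretch lies in the beginning of the coding sequence, where mitochondrial enzymes carry their import signal. For comparison, the first 90 coding bases of the cytosolic and the mitochondrial enzyme are given from the start codon, in capitals.
Shmt1-201: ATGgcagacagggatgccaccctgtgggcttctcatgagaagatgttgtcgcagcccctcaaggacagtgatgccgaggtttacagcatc
Shmt2-201: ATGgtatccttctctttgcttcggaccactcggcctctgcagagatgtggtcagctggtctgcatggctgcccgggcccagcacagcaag
Over 1420 aligned bases the coding sequences of Shmt1-201 and Shmt2-201 were 65.6% identical, and the longest run of letters shared by the whole transcripts was 19 bases. *Shmt1* overlaps 184 bases of *Smcr8* on the opposite strand, which had a mean of 4.54 CPM.

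*Mthfd1* (ENSMUSG00000021048, chr12:76255298-76319803, plus strand), the cytosolic enzyme that joins the dehydrogenase, cyclohydrolase and synthetase activities, had a normalized CPM of 82.0, 74.2, 74.3, 76.7 and 69.8 in WT and 72.8, 77.4, 85.2, 72.1 and 74.6 in recent KO samples. The ranges nearly coincided. Its log2 fold change was 0.02 ± 0.07 (SE; interval -0.12 to 0.16; edgeR adjusted p = 0.953).

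Within *Mthfd1*, a transcript that skips the second exon differed more than the gene did. Mthfd1-206 held 8.55%, 10.8%, 28.7%, 14.7% and 0% of the TPM in WT samples and 0%, 3.11%, 0%, 0% and 2.49% in recent KO samples. It was above every recent KO sample in 4 of 5 WT samples and listed at 0 in WT replicate 5. The difference of -11.4 percentage points had an exact permutation p of 0.0476 and an adjusted p of 0.222 over the 20 transcripts, and it did not pass. Without 1 sample in turn the difference ranged from -14.6 points (without WT replicate 5, adjusted p = 0.0529) to -7.4 points (without WT replicate 3, which had the highest share, adjusted p = 0.185), with adjusted p of 0.0529 to 0.349. The skipped exon is exon 2 of Mthfd1-201, 85 bases at chr12:76270418-76270502, and without it the annotated coding sequence starts further on and falls from 935 to 755 codons.
Mthfd1-201: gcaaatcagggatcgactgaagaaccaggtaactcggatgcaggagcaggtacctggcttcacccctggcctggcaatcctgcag
The exon is printed in lower case throughout because all of it is skipped.

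*Mthfd2* (ENSMUSG00000005667, chr6:83305691-83325908, minus strand), the mitochondrial dehydrogenase and cyclohydrolase known to be high in dividing cells, had a normalized CPM of 39.6, 36.9, 42.3, 42.9 and 41.0 in WT and 45.3, 35.2, 48.1, 33.5 and 42.6 in recent KO samples. The recent KO samples spread on both sides of the WT range, with an SD of 6.34 CPM against 2.38 CPM. The fitted log2 fold change was 0.02 ± 0.10 (SE; interval -0.20 to 0.23; edgeR adjusted p = 0.974).

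*Mthfd1l* (ENSMUSG00000040675, chr10:3973118-4167081, plus strand), the mitochondrial synthetase that releases formate, had a normalized CPM of 34.9, 30.2, 35.9, 32.1 and 32.3 in WT and 38.7, 37.0, 34.6, 28.7 and 33.8 in recent KO samples. The highest and the lowest value both belonged to recent KO samples. In edgeR's fit the log2 fold change was 0.06 ± 0.09 (SE; interval -0.12 to 0.25; edgeR adjusted p = 0.866). Its reads fell on 3 consensus coding transcripts, of which Mthfd1l-202 held 59.6% ± 7.46 and Mthfd1l-201 held 38.7% ± 8.31 of the WT TPM (SD, n = 5).

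*Mthfd2l* (ENSMUSG00000029376, chr5:90931117-91021368, plus strand), a relative of *Mthfd2* in the same compartment, was the least read of the 10, with 47 to 149 estimated reads in a sample. Its normalized CPM was 6.3, 7.1, 4.5, 3.7 and 6.5 in WT and 7.4, 4.0, 6.8, 6.9 and 7.7 in recent KO samples. WT replicates 3 and 4 and recent KO replicate 2 lay below the other samples. The log2 fold change was 0.22 ± 0.21 (SE; interval -0.22 to 0.66; edgeR adjusted p = 0.799), and at this depth a change of up to 1.59-fold lies within the interval.

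The annotated full-length transcript, Mthfd2l-201 (2159 bases, 338 codons), held 27, 45, 39, 21 and 35 reads in WT samples and 35, 30, 65, 59 and 49 in recent KO samples. The short transcript Mthfd2l-203 (688 bases, 62 codons) held 96, 75, 35, 16 and 61 reads in WT and 62, 25, 62, 50 and 87 in recent KO samples. Through its short length it took 85.1% ± 7.55 of the gene's WT TPM but 53.9% ± 15.2 of its reads (SD, n = 5). Mthfd2l-203 shares only the first exon with Mthfd2l-201 and ends in an exon within its first intron. The coding end of that exon, chr5:90932912-90932984 on the plus strand, is shown with the stop codon in capitals. That exon sets most of the *Mthfd2l* TPM, though not most of the reads in every sample, apart from the full-length enzyme.
Mthfd2l-203: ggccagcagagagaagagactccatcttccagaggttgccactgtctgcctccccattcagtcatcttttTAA

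*Mtr* (ENSMUSG00000021311, chr13:12182712-12258113, minus strand) encodes methionine synthase, which passes the folate carbon to homocysteine. Its normalized CPM was 19.0, 18.2, 19.7, 17.0 and 16.3 in WT and 16.7, 16.9, 17.5, 21.1 and 15.3 in recent KO samples. Recent KO replicate 4 was the highest and the other 4 lay at or below the middle of the WT range. Its log2 fold change was -0.04 ± 0.10 (SE; interval -0.25 to 0.16; edgeR adjusted p = 0.920). The coding transcript Mtr-201 took 66.3% of the WT reads and 28.5% of the WT TPM, and Mtr-202, a 1784-base model with a retained intron, took 52.7% ± 3.12 of the TPM (SD, n = 5).

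**Figure D4:**
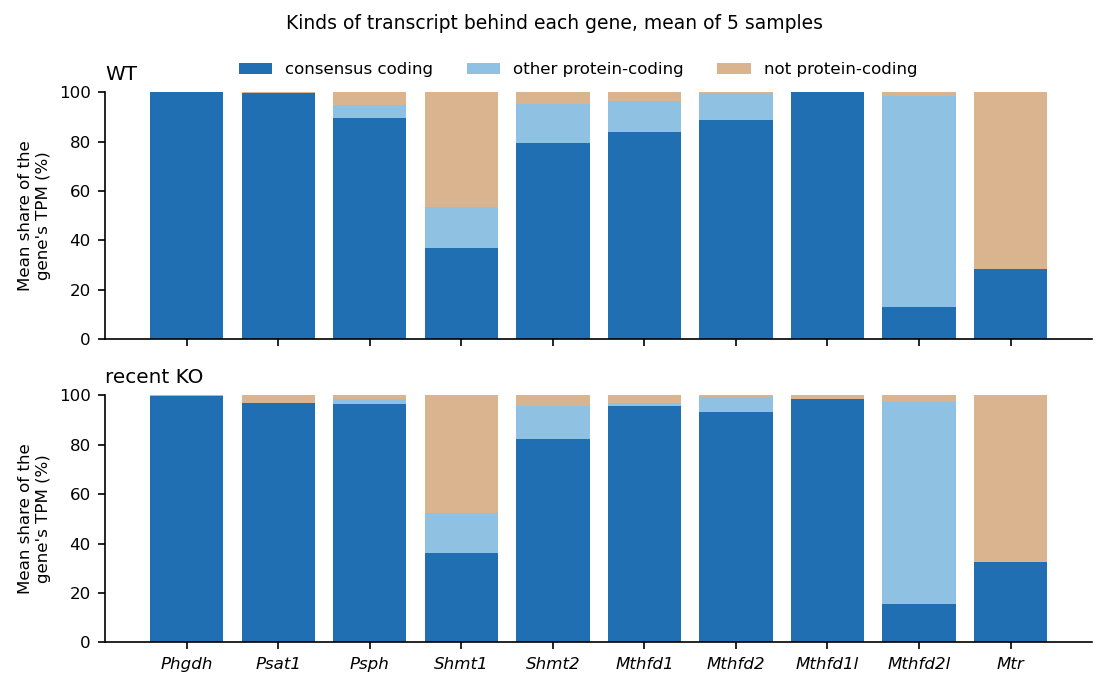
Mean share of each gene's TPM, in percent, held by consensus coding, other protein-coding and noncoding transcripts in 5 WT and 5 recent KO samples. Noncoding transcripts make up 46.5% of *Shmt1* and 71.5% of *Mtr* in WT, other protein-coding transcripts 85.1% of *Mthfd2l*, and the other 7 genes are mostly consensus coding.

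Across the 10 genes, 20 transcripts with a mean share of 5% to 95% were compared between groups, and 0 differed after adjustment by exact permutation tests. At an unadjusted p below 0.05 there were 3. Beside Mthfd1-206 these were Psph-201, whose mean share was 89.4% in WT and 96.3% in recent KO (p = 0.0238, exact), and Mthfd2-207, with 10.9% and 6.05% (p = 0.0476, exact). Mthfd2-207 held at most 11 reads in a sample. Transcripts of other genes were not compared, so no share over all transcripts stands beside the 3 of 20. Shares within a gene sum to a fixed total, so the 20 transcripts are not independent.

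Cytosolic and mitochondrial partners were then set against each other within each sample as ratios of TPM, which do not depend on how samples are scaled. In WT, *Shmt2* was 1.87, 1.77, 2.06, 2.45 and 1.91 times the level of *Shmt1*, a mean log2 ratio of 1.00 ± 0.18 (SD, n = 5). All 5 samples had the mitochondrial gene higher, the lowest by 1.77-fold. In recent KO samples the ratio was 1.89, 1.60, 1.87, 1.68 and 1.63, a mean log2 ratio of 0.79 ± 0.11. The difference of the mean log2 ratios, recent KO minus WT, was -0.21 (exact two-sided permutation p = 0.0476; adjusted p = 0.190 over the 4 pairs), which did not pass, and 3 recent KO samples lay below every WT sample. The difference was -0.12 with consensus coding transcripts only (adjusted p = 0.278), -0.16 with protein-coding transcripts (adjusted p = 0.659) and -0.14 without WT replicate 4 (adjusted p = 0.349). WT replicate 4, with the highest ratio, was also the sample with the lowest *Shmt1*.

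For the synthetase step the order was the other way. *Mthfd1l* was 0.373, 0.334, 0.408, 0.360 and 0.406 times the level of *Mthfd1* in WT, a mean log2 ratio of -1.41 ± 0.12 (SD, n = 5). Recent KO samples gave 0.473, 0.429, 0.348, 0.348 and 0.391. The mean log2 ratio was -1.34 ± 0.19 in recent KO samples, and the difference of 0.07 had an exact permutation p of 0.492 (adjusted p = 0.571).

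For the dehydrogenase step *Mthfd2* and *Mthfd1* were at about the same level. The ratio of *Mthfd2* to *Mthfd1* was 0.917, 0.829, 0.947, 0.983 and 1.09 in WT and 1.08, 0.806, 0.922, 0.786 and 0.962 in recent KO samples. In each group 1 of 5 samples had *Mthfd2* higher. The mean log2 ratios were -0.07 ± 0.15 in WT and -0.14 ± 0.19 in recent KO samples (exact permutation p = 0.484, adjusted p = 0.571).

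Of the mitochondrial dehydrogenases, *Mthfd2* was above *Mthfd2l* in 5 of 5 samples of each group. The ratio was 1.84, 1.87, 3.73, 6.05 and 2.45 in WT and 2.09, 3.73, 2.92, 2.05 and 1.89 in recent KO samples, the most variable of the 4 pairs. The mean log2 ratios were 1.51 ± 0.73 and 1.29 ± 0.42 (exact permutation p = 0.571, adjusted p = 0.571).

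The size of these ratios rested on the transcripts counted, and the order of the pairs with a clear order did not. With consensus coding transcripts only, *Shmt2* was 4.31 times *Shmt1* in WT and 3.96 times in recent KO samples, and *Mthfd2* was 19.3 and 14.2 times *Mthfd2l*. *Mthfd1l* stayed below *Mthfd1*, at 0.451 and 0.407 times. *Mthfd2* over *Mthfd1* was 1.01 in WT and 0.882 in recent KO samples, on either side of 1. Coding sequences were 65.6% identical for *Shmt2* and *Shmt1*, 65.7% for *Mthfd1l* and *Mthfd1* and 69.9% for *Mthfd2* and *Mthfd2l*. The 73.1% for *Mthfd2* and *Mthfd1* came from 1050 bases spread with gaps over 2805, which can overstate identity. No pair had a shared run over 20 bases.

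**Figure D5:**
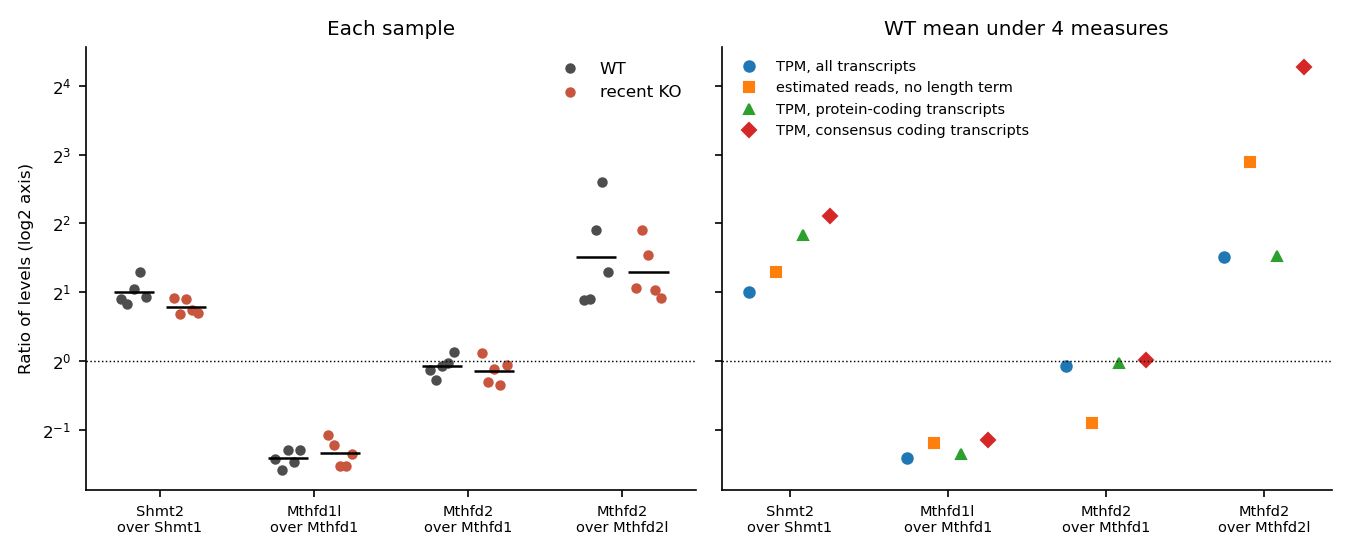
Ratios of gene levels on a log2 axis, with the dotted line at equal levels. On the left, ratios of TPM in 5 WT and 5 recent KO samples with the mean of each group as a line; on the right, the WT mean under 4 ways of counting. *Shmt2* over *Shmt1* goes from 2.0 with all transcripts to 4.31 with consensus coding transcripts, and *Mthfd2* over *Mthfd2l* from 2.86 to 19.3.

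The genes around these enzymes were read from 7 lists of 74 genes for folate supply, mitochondrial folate and glycine cleavage, the methionine cycle, purine synthesis, serine and glycine transport and use, regulators, and proliferation. Of the 74, 58 could be tested, 0 were called and 10 had an unadjusted p below 0.05 in edgeR's test, beside 10.2% of all tested genes. Of those 10, 9 were higher and 1 was lower in recent KO samples, beside 4.89% and 5.35% of all tested genes. The median log2 fold change of the 58 was 0.00.

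*Tyms*, thymidylate synthase and a consumer of the folate carbon, was the most abundant gene of the folate supply list, with a TPM of 275 in WT and 311 in recent KO samples, and *Mthfs* had a TPM of 34.6 and 34.9. *Slc19a1*, the reduced folate carrier, had a CPM of 74.3 ± 3.98 in WT and 83.9 ± 7.57 in recent KO samples (log2 fold change 0.18, edgeR adjusted p = 0.415). The folate receptors *Folr1* and *Folr2* were too low to test, and *Ftcd* was at 0 in every sample.

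*Sfxn1*, the mitochondrial serine carrier, had a TPM of 97.3 in WT, near that of *Shmt2*, and 98.3 in recent KO samples. Of the glycine cleavage system, *Gcsh* had a log2 fold change of 0.19 and *Gldc*, its decarboxylase, of -0.49, with a CPM of 7.77 ± 1.37 in WT samples and of 5.49 ± 1.44 in recent KO samples (edgeR adjusted p = 0.427 and 0.401). *Amt*, the aminomethyltransferase of that system, was too low to test, as were *Aldh1l2*, *Dmgdh* and *Sardh*, and the highest mean TPM of these 4 genes over the 10 samples was 0.0868. *Sfxn3* had a log2 fold change of 0.28 (adjusted p = 0.396).

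In the methionine cycle, *Mat2a* and *Mat2b*, the subunits of S-adenosylmethionine synthetase used outside liver, had a TPM of 97.2 and 46.2 in WT, and *Ahcy* had a log2 fold change of 0.17 (edgeR adjusted p = 0.428). The liver genes *Mat1a*, *Bhmt* and *Gnmt* and the transsulfuration gene *Cbs* were too low to test. In purine synthesis, 6 of 6 genes were tested. *Paics* had a TPM of 113 in WT and 128 in recent KO samples and a log2 fold change of 0.14, *Ppat* of 0.16 and *Adsl* of -0.05 (edgeR adjusted p = 0.415, 0.420 and 0.836).

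*Serinc3*, a membrane protein of the serine incorporator family, led the uptake and use list with a TPM of 237 in WT and a log2 fold change of 0.18 (edgeR adjusted p = 0.465), followed by *Sptlc2*, a subunit of serine palmitoyltransferase, at 47.9. Among regulators, *Atf4*, the factor known to drive serine synthesis genes when amino acids are short, had a TPM of 100 in WT and 101 in recent KO samples and a log2 fold change of -0.05 (edgeR adjusted p = 0.839). *Myc* had 108 and 132 and a log2 fold change of 0.20 (edgeR adjusted p = 0.328). Of 13 proliferation genes, the groups did not overlap for 1, *Ccnb1*, beside 2.43% of all tested genes, 1.11% higher in recent KO samples. Its CPM was 219 ± 5.24 in WT samples and 243 ± 7.93 in recent KO samples (log2 fold change 0.15, edgeR adjusted p = 0.298). *Cdk1* and *Pcna* had log2 fold changes of 0.06 and 0.11. The proliferation genes did not move together: 7 of 13 had a log2 fold change above 0, with a median of 0.02 and a range of -0.14 to 0.15.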

How the data were processed

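RNA was sequenced from 5 WT and 5 recent *Mpc2* KO samples of sorted GMPs, grouped by their titles. The authors prepared cDNA libraries by SMARTseq amplification and quantified paired reads against Gencode M27 with Salmon (version 1.5.1 in the submitters' processing notes). The deposited files give estimated counts of reads per transcript, not normalized, and TPM, which Salmon scaled to effective length and to the same total in each sample. The authors' table of their own DESeq2 comparison (fold changes and p-values) was not used. The deposited effective lengths served only as an offset in an alternative.

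Transcripts were matched by identifier to GENCODE M21 on GRCm38, the annotation on hand, from which positions, transcript types and sequences come. Of 140789 transcripts, 137161 (97.4%) matched, the rest holding 0.348% to 0.390% of a sample's reads. Estimated counts were summed per gene and rounded. EdgeR 4.0.16 (R 4.3.3) tested 12381 genes kept by filterByExpr (minimum count 10) with TMM scaling, the quasi-likelihood test and Benjamini-Hochberg adjustment at 0.05 over all of them; normalized CPM is relative to the TMM-scaled library. The study's methods name DESeq2, run here (1.42.0) as an alternative. TPM ratios took a pseudocount of 0.1 TPM and were compared, like transcript shares, by two-sided exact permutation tests (smallest p possible with 5 against 5 samples, 0.00794). Replicates differed beyond sampling noise and none were identical. Salmon divides reads between transcripts, so shares are estimates. Reads of amplified cDNA carry no molecular identifiers and are not independent molecules, so precision was taken from the spread between samples, and p-values rest on that spread. It is a spread between mice in WT and between pools of 2 mice in recent KO samples, and the tests treated both alike. Near-identical copies were searched with BLAST 2.17.0 (at least 90% identity over 100 bases), and coding sequences were aligned with Biopython 1.88. The scripts were tested on simulated data.

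All 10 genes are named. Of the other pathway genes, those with an unadjusted p below 0.05 or among the top 2 of their list by WT TPM were named, with a few untested genes and *Ftcd* named for their low levels after their values were seen. The genes and lists were chosen with earlier results of these data known. Alternatives were scaling by RLE, by the upper quartile or by library size, other filters, a length offset, robust dispersions, DESeq2, limma 3.58.1 on log2(TPM + 1) or log2(TPM + 0.1), a replicate block, other transcript sets, no pseudocount or 1 TPM in ratios, and leaving out each sample.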

Additional observations from a re-analysis of the deposited data

Results flagged for a closer look

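Among 68 sets of 5 samples checked for a value far from the rest, 3 were set apart by Dixon's criterion, beside 3.4 due by chance at its 1 in 20 rate. The normalized CPM of *Shmt1* in WT replicate 4 was 78.2, against 91.1 to 94.7 in the other WT samples. For *Shmt2*, WT replicate 2 had 195 CPM against 224 to 231. For *Mthfd2l*, recent KO replicate 2 had 3.99 CPM against 6.79 to 7.68.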

How the results depend on the processing

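*Psat1*, *Shmt1*, *Phgdh*, *Mthfd1l* and *Mthfd2l* kept the sign of a log2 fold change above 0 under all 11 other settings and in the 10 fits without 1 sample, though not its size. In those 10 fits the values ranged from 0.13 to 0.19 for *Psat1*, 0.13 to 0.21 for *Shmt1*, 0.03 to 0.10 for *Phgdh*, 0.02 to 0.12 for *Mthfd1l* and 0.11 to 0.35 for *Mthfd2l*, and under the other settings from 0.17 to 0.27, 0.18 to 0.27, 0.06 to 0.14, 0.06 to 0.15 and 0.08 to 0.28. The 10 genes had an adjusted p of at least 0.235 in every fit, and 102 of 110 values outside those 10 fits kept their direction and side of the threshold. Signs turned for 5 genes whose main values lay between -0.04 and 0.06: *Psph* to -0.04, *Mthfd1* to -0.01 and *Mthfd2* to -0.07 with the length offset, *Shmt2* to 0.01 with upper quartile scaling, 0.07 by library size alone and 0.05 with either limma setting, and *Mtr* to 0.03 by library size alone. The cause was not tested.

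Without 1 sample in turn, log2 fold changes ranged from -0.05 to 0.12 for *Psph*, -0.05 to 0.02 for *Shmt2*, -0.02 to 0.05 for *Mthfd1*, -0.05 to 0.08 for *Mthfd2* and -0.12 to 0.00 for *Mtr*, and 6 to 10 of the 10 were above 0. With the length offset 5 of the 10 were above 0. Genes with an unadjusted p below 0.05 numbered 1 of 10 with the length offset and with either limma setting, and 1 to 2 without 1 sample. Over all genes, 41 calls became 206 without a filter, 156 with DESeq2, 25 with log2(TPM + 1), 24 with log2(TPM + 0.1) and 25 to 91 without 1 sample (91 without recent KO replicate 2).

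The ratio of *Mthfd1l* to *Mthfd1* differed between groups by -0.15 with consensus coding transcripts only, an alternative added after the data were seen, against 0.07, and *Mthfd2* over *Mthfd1* in WT was 0.02 there against -0.07. Without 1 sample the group difference ranged from -0.25 to -0.14 in *Shmt2* over *Shmt1*, and in *Mthfd2* over *Mthfd2l* from -0.38 to 0.05.

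Samples with the same replicate number did not deviate together (correlations of -0.177 to 0.0482 over 12381 genes, and 0 of 5 WT samples correlated best with their own number), so the numbers did not pair the samples. With the replicate number as a block 20 genes were called and 0 of the 10 enzymes, and no direction among the enzymes or pairs changed.

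Depth limits *Mthfd2l* (47 to 149 reads a sample), and transcript shares rest on the annotation and on short models.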
